A study of Mus musculus with 9 samples.

Results

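The 35 genes described here encode enzymes of cholesterol synthesis, enzymes of fatty acid synthesis, regulators of both pathways and sterol exporters, and they were taken by name out of 24062 named genes in a count table of mouse T cells. They comprised 15 genes of cholesterol synthesis, 6 genes of SREBP regulation and sterol transport, 11 genes of fatty acid synthesis and 3 genes of efflux. Levels are given as CPM, a count scaled to the library total, and 30 of the 35 genes passed the filter for testing, which was more than 10 CPM in at least 1 library.

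The cells were naive CD4+ T cells from spleens of young adult male RORγtGFP Foxp3RFP mice, F1 hybrids heterozygous for a green reporter transgene and a Foxp3-IRES-mRFP knock-in, and all were activated with beads carrying anti-CD3 and anti-CD28. DP cells (RORγt+Foxp3+) and SPR cells (RORγt+ alone) were sorted from a Th17 culture with TGFβ and IL6, and SPF cells (Foxp3+ alone) were sorted from a Treg culture with TGFβ and IL2, all after 3 days. The Treg culture held a higher dose of TGFβ, so the sorted population, the cytokines and the TGFβ dose cannot be told apart in a comparison with SPF. Each population had 3 libraries, labelled biological replicates 1 to 3, and the sources used here do not say how many mice stood behind each. DP and SPR libraries of the same number deviated together from their group means and are treated as pairs.

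Total counts were 1495152 to 2447057 in DP libraries (median 2377088), 2323243 to 3759662 in SPR libraries (median 2865978) and 2149540 to 2204236 in SPF libraries (median 2151895). Foxp3 stood at 77.2 to 130.0 CPM in DP, 6.4 to 7.3 CPM in SPR and 208.7 to 244.2 CPM in SPF, as the sort would set. Over the tested genes, SPF replicates 1 and 3 were the least alike of the SPF libraries (Spearman correlation 0.907). The correlation was 0.938 between replicates 2 and 3 and 0.946 between replicates 1 and 2, so these values do not single out 1 library. SPF replicate 3 differed from both others in the members described here, and results that rest on it are given with and without it. Fewer cells of a kind and less RNA per cell cannot be told apart in these bulk samples.

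Cholesterol is built from acetyl-CoA through the mevalonate pathway, squalene and lanosterol. The genes of this chain are switched on together by SREBP2 (Srebf2), and those of fatty acid synthesis mostly by SREBP1 (Srebf1). SCAP carries the SREBP precursors from the endoplasmic reticulum to the Golgi for cleavage when sterols are low, and INSIG proteins hold them back when sterols are high. Oxysterols instead activate LXR, of which Nr1h2 encodes the β form, and LXR drives the exporters Abca1 and Abcg1. Activated T cells are known to turn on sterol and fatty acid synthesis as they grow and divide.

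Since the enzymes of both pathways share regulators, the promoters of 3 members are shown, an early and a late mevalonate enzyme and the fatty acid synthase. RefSeq promoters, 250 bases before to 50 after a transcription start in GRCm38.p6, were found for 27 of the 35 members. The windows printed are the 150 bases just before the start, at chr13:119690201-119690350 on the plus strand for Hmgcs1, chr8:122443423-122443572 on the minus strand for Mvd and chr11:120824548-120824697 on the minus strand for Fasn, and none overlapped an annotated exon. Capitals mark matches to TCACNCCAC, the core of a sterol regulatory element, or to CCAAT, the box bound by NF-Y, a factor known to act with SREBP. A CCAAT box on the other strand reads ATTGG, and the Fasn run CCAATTGG holds 2 matches that overlap. The same windows of Acaca and Acly also overlapped no annotated exon, held no match and are not printed, so the windows shown are not typical of all members.
Hmgcs1: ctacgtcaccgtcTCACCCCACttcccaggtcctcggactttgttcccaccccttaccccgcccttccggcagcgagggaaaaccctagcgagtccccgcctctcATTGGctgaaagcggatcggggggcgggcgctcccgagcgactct
Mvd: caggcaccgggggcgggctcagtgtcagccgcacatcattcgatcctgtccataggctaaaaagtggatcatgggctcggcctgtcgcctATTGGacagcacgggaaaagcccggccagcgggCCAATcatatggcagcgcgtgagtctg
Fasn: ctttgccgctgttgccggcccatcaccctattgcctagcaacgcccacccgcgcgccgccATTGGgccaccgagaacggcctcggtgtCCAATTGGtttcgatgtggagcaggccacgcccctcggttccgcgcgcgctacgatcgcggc

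In Hmgcs1 the element TCACNCCAC lay at bases -137 to -129 from the start and a CCAAT box at -45 to -41. In Mvd the CCAAT boxes lay at -60 to -56 and at -27 to -23, and in Fasn at -90 to -86, -62 to -58 and -59 to -55. Searched on both strands, TCACNCCAC was in 1 of 36 member promoters (2.78%), against 1.24% of all 32851 promoters. CCAAT was in 22 of 36 (61.1%), against 37.4%, and the E-box CACGTG, a site SREBP1 can also bind, was in 8 of 36 (22.2%), against 7.15%. Counted per gene, 21 of 27 members had a CCAAT box in any promoter (77.8%), against 41.1% of all genes. A match is a description of the letters in these windows and not a bound site.

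**Figure D1:**
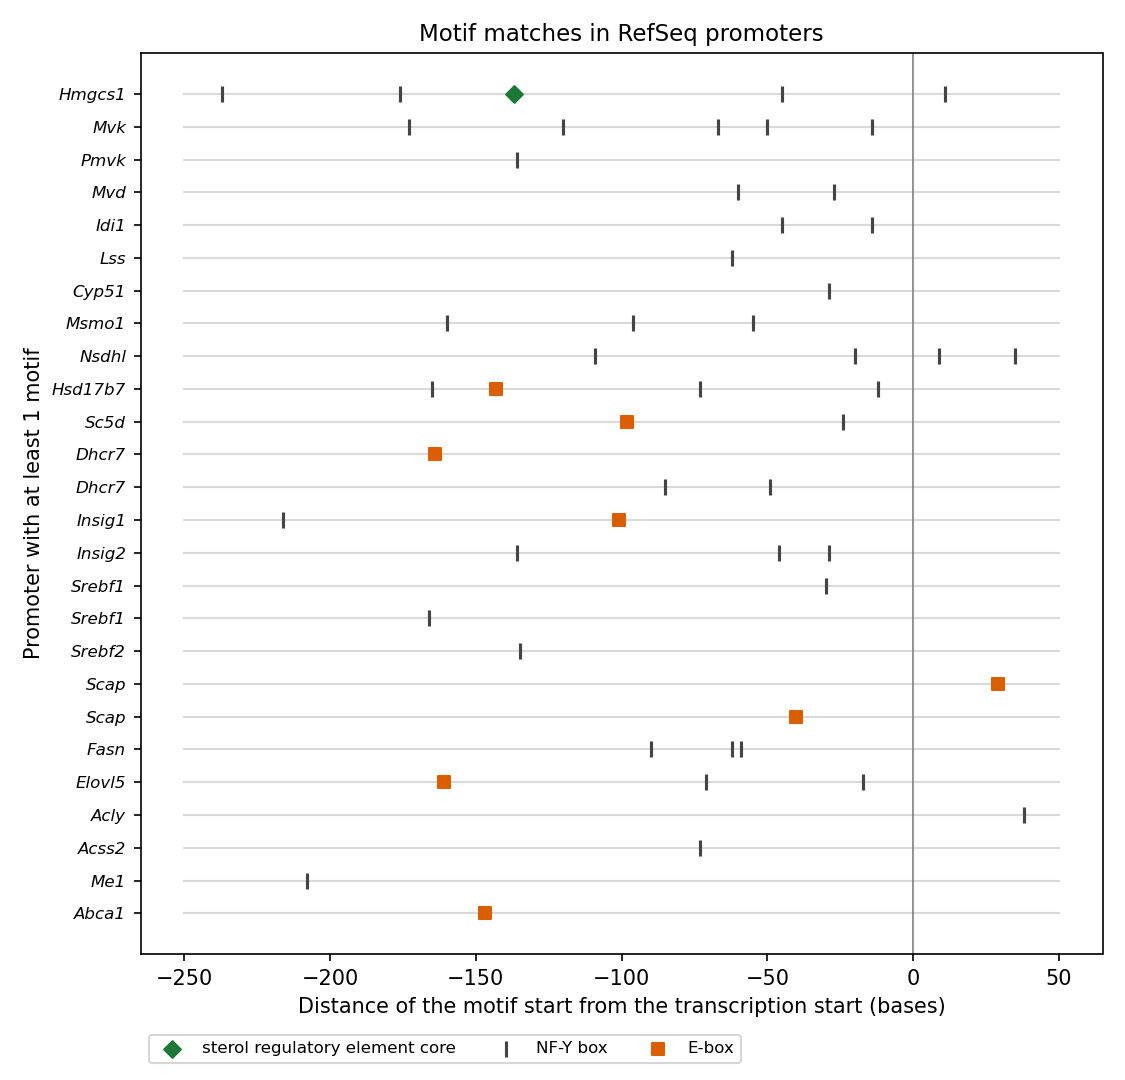
Position of each motif match (x axis, bases from the transcription start) in the RefSeq promoters of members with at least 1 match (y axis), with diamonds for the sterol regulatory element core, ticks for CCAAT and squares for the E-box. The 1 diamond lies in Hmgcs1 at -137, while CCAAT ticks appear in 22 of the 36 member promoters.

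The first question was whether DP cells, which express Foxp3 within the Th17 culture, differed from SPR cells of the same culture in these pathways. The summed level of the cholesterol genes was 593, 889 and 595 CPM in DP replicates 1 to 3, against 602, 733 and 551 CPM in SPR replicates 1 to 3. The summed level of the fatty acid genes was 1369, 1653 and 1281 CPM in DP, against 1382, 1689 and 1292 CPM in SPR. The DP and SPR libraries overlapped in both sums, and replicate 2 was the highest of its group in each. Within pairs, the DP sum over the SPR sum was 0.986, 1.21 and 1.08 for the cholesterol genes and 0.991, 0.978 and 0.992 for the fatty acid genes.

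None of the 30 tested members was called between DP and SPR (edgeR adjusted p under 0.05), where 0.0107% of all 9310 tested genes was called. None reached an unadjusted p under 0.05 in the fit of all 9 libraries either, where 3.51% of all genes were higher and 3.06% lower by that rule. DESeq2 called none of the members and 0.473% of all genes. The median log2 fold change of the members, DP over SPR, was 0.02, with a range of -0.44 to 0.75, and that of all tested genes was -0.01. A missed threshold does not show equal levels. For Hmgcs1, the cytosolic HMG-CoA synthase at the head of the mevalonate pathway, the interval of 2 SE around the log2 fold change of 0.30 ran from -0.74 to 1.34. For Scd2, a stearoyl-CoA desaturase, it ran from -0.998 to 0.585, around -0.21.

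The CPM of 3 members did not overlap between DP and SPR, all higher in DP, where 9.04% of all tested genes were higher without overlap and 5.41% lower. Msmo1, the methylsterol monooxygenase that starts the removal of methyl groups from lanosterol products, stood at 32.8, 64.6 and 44.8 CPM in DP, against 22.0, 31.9 and 28.2 CPM in SPR. Every DP library was above every SPR library, and each DP library was 1.49, 2.03 and 1.59 times its same-numbered SPR library. Its log2 fold change was 0.75 (SE 0.65, edgeR adjusted p = 0.945) in the fit of all 9 libraries. With a block for the pairs in a fit of the 6 DP and SPR libraries, where 3.49% of genes were called (1.97% higher and 1.52% lower), it was 0.72 (SE 0.17, edgeR adjusted p = 0.0431), and Msmo1 was the only member called. This call was lost when any 1 pair was left out (adjusted p = 0.113, 0.176 and 0.177). In the block fit of all 3 pairs, Msmo1, Fasn and Abcg1 were higher at an unadjusted p under 0.05 (edgeR) and 0 members lower. By that rule 716 of all 8975 genes in that fit were higher and 717 lower.

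Hmgcs1 stood at 90.4, 141 and 89.6 CPM in DP, against 80.3, 82.6 and 89.1 CPM in SPR. The groups were separated only narrowly, and DP replicate 2 alone was far above the SPR libraries. Abcg1, an exporter that passes cellular sterols to lipoproteins, stood at 90.9, 83.0 and 93.6 CPM in DP, against 80.3, 63.3 and 63.6 CPM in SPR. DP exceeded SPR in each pair, at 1.13, 1.31 and 1.47 times the SPR level. Neither gene was called with the block (edgeR adjusted p = 0.468 for Hmgcs1 and 0.292 for Abcg1).

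Fasn, the multi-domain fatty acid synthase, was also higher in DP within each pair. It stood at 292.8, 341.2 and 262.9 CPM in DP, against 211.4, 270.7 and 210.4 CPM in SPR, so that DP replicate 3 lay below SPR replicate 2. The pair ratios were 1.38, 1.26 and 1.25, with a log2 fold change of 0.33 (SE 0.13, edgeR adjusted p = 0.245) with the block. In the opposite direction, Mvd, the mevalonate diphosphate decarboxylase, and Dhcr7, a late sterol reductase, were lower in DP than in SPR in all 3 pairs, with ratios of 0.858, 0.885 and 0.917 for Mvd and 0.857, 0.892 and 0.7003 for Dhcr7. With the block, the edgeR adjusted p was 0.523 for Mvd and 0.468 for Dhcr7. Scd2 was also lower in each pair (0.811, 0.961 and 0.910, edgeR adjusted p = 0.525 with the block). Cyp51 (1.23, 1.24 and 1.06) and Sc5d (1.15, 1.68 and 1.06) were higher in each pair (edgeR adjusted p = 0.696 and 0.508 with the block). The share of all genes with the same direction in every pair was not counted, so these orders alone do not mark the members out.

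**Figure D2:**
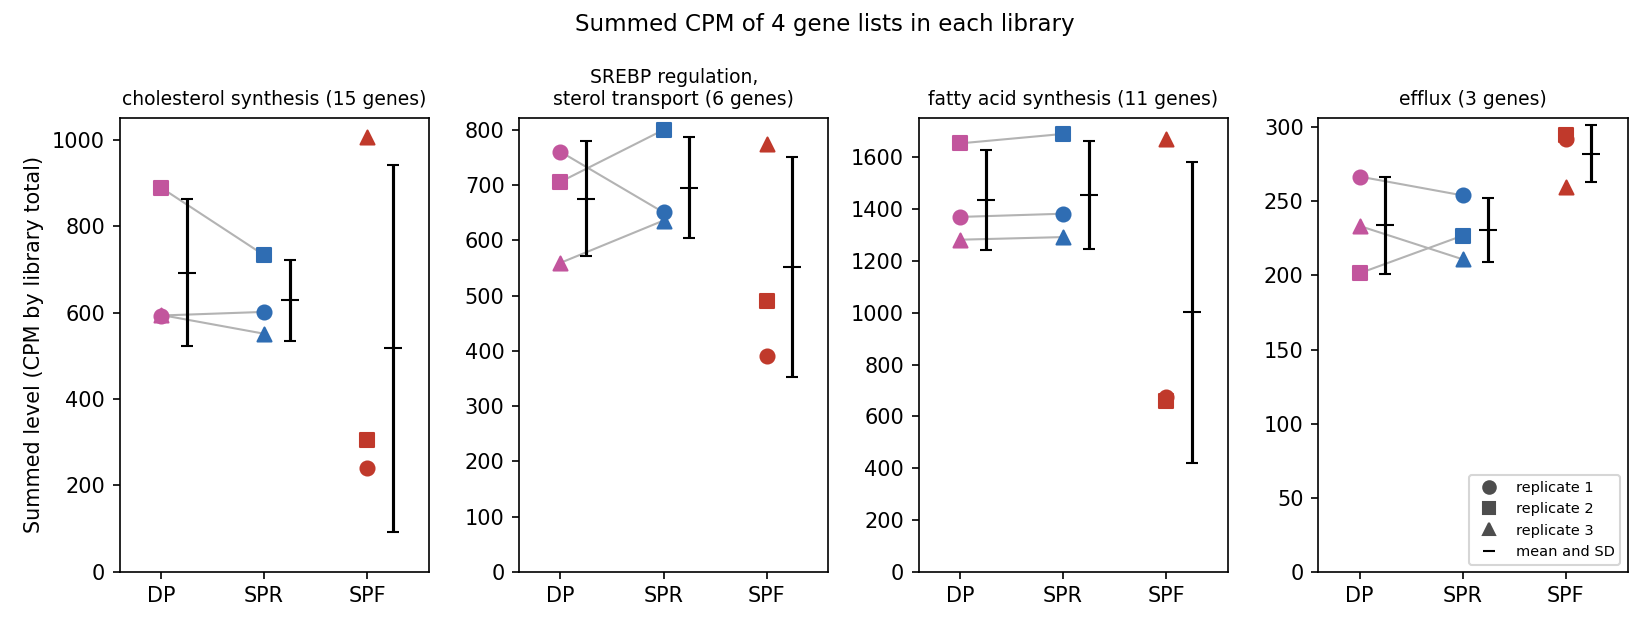
Summed CPM (y axis, by library total) of the 4 gene lists in each DP, SPR and SPF library, with marker shapes for replicate numbers, grey lines joining DP and SPR libraries of the same number and bars for the mean and SD (n = 3). For the cholesterol genes SPF replicates 1 and 2 lie at 241 and 304 CPM, below the 6 libraries of the Th17 culture, while SPF replicate 3 lies at 1006 CPM, above them.

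The next question was how the DP and SPR cells of the Th17 culture compared with the SPF cells of the Treg culture. Both comparisons use the same SPF libraries, so their values are given side by side and not as support for each other. The summed cholesterol level averaged 692 ± 171 CPM in DP and 629 ± 93.9 CPM in SPR, against 517 ± 424 CPM in SPF (SD, n = 3 each). The SPF libraries were at 241, 304 and 1006 CPM, so SPF replicates 1 and 2 were below all 6 DP and SPR libraries and SPF replicate 3 was above all of them. The summed fatty acid level averaged 1435 ± 194 CPM in DP and 1454 ± 209 CPM in SPR, against 1001 ± 580 CPM in SPF (SD, n = 3 each), with SPF libraries at 675, 658 and 1671 CPM. The regulators summed to 760, 706 and 559 CPM in DP and 650, 800 and 636 CPM in SPR, against 390, 490 and 773 CPM in SPF. The efflux genes summed to 267, 201 and 233 CPM in DP and 254, 227 and 211 CPM in SPR, against 292, 294 and 260 CPM in SPF. DP replicate 1 lay above SPF replicate 3, so these sums overlapped. Most of each sum was Nr1h2, which encodes a receptor and not an exporter and averaged 143 CPM in DP, 159 CPM in SPR and 164 CPM in SPF.

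With all 9 libraries, 1 of 30 members was called higher in DP than in SPF and 2 were called lower, where 13.7% of all tested genes were called (7.55% higher and 6.18% lower). Between SPR and SPF, 0 members were called higher and 3 lower, where 16.7% of all genes were called (9.14% higher and 7.58% lower, edgeR). The CPM of 1 member was higher without overlap in DP than in SPF (Fasn) and that of 3 lower (Acss2, Elovl5 and Abcg1), where 19.2% and 12.3% of all genes were. Between SPR and SPF, 3 were higher (Fasn, Acaca and Insig2) and the same 3 lower, where 19.9% and 17.1% of all genes were. The numbers of the 30 members at an unadjusted p under 0.05 were 4 higher and 3 lower for DP over SPF, where 15.9% of all genes were higher and 14.5% lower by that rule. For SPR over SPF they were 5 higher and 4 lower, where 16.8% and 15.4% of all genes were. DESeq2 called 3 members for DP over SPF (17.4% of all genes) and 5 for SPR over SPF (19.6% of all genes), Acaca and Fasn being the 2 higher ones in the second. These shares of the members lay near or below those of all genes. The median log2 fold change of the members was 0.33 for DP over SPF, against 0.01 for all genes, and 0.28 for SPR over SPF, against 0.00. None of the 13 cholesterol genes tested was called in either comparison (edgeR). At an unadjusted p under 0.05 there were 0 of them for DP over SPF and 2 for SPR over SPF, Lss higher and Sc5d lower, and DESeq2 called 0 in each.

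Acss2 and Elovl5, of the fatty acid list, fell in both Th17-culture populations relative to SPF. Acss2, which makes acetyl-CoA from acetate outside the mitochondria and thereby feeds lipid synthesis and histone acetylation, lies at chr2:155517948-155585724 in mm10. It stood at 19.8, 20.4 and 21.4 CPM in DP and 25.1, 18.9 and 22.1 CPM in SPR, against 108.9, 67.5 and 43.7 CPM in SPF. No DP or SPR library reached the lowest SPF library, although the SPF libraries themselves varied widely. The log2 fold change was -1.91 for DP over SPF (SE 0.30, edgeR adjusted p = 0.00318) and -1.75 for SPR over SPF (SE 0.29, edgeR adjusted p = 0.00266). Both calls held with any 1 library left out, and the DP call was lost only without both DP replicates 2 and 3 (adjusted p = 0.115). The gene overlaps Gss, Ggt7 and Acss2os on the opposite strand and Gm20637 and Mipep-ps on its own, and no source used here gives the strand setting of the counting, so some counts may belong to those genes.

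Elovl5, the elongase of polyunsaturated fatty acids, at chr9:77917364-77984519, stood at 94.7, 45.8 and 52.8 CPM in DP and 72.6, 49.1 and 53.7 CPM in SPR, against 130.2, 96.3 and 142.2 CPM in SPF. DP replicate 1 came close to the lowest SPF library, but the groups did not overlap. The log2 fold change was -1.001 for DP over SPF (SE 0.27, edgeR adjusted p = 0.0332) and -1.09 for SPR over SPF (SE 0.27, edgeR adjusted p = 0.0184). The call for DP over SPF was lost without DP replicate 2 or 3 or any 1 SPF library (adjusted p = 0.0508 to 0.120), with library totals in place of TMM factors (0.0508) and with only the DP and SPF libraries in the fit (0.0560). That for SPR over SPF was lost without SPR replicate 2 or 3 (0.0768 and 0.0643).

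Abcg1, at chr17:31057675-31117988, fell in SPR relative to SPF, with 80.3, 63.3 and 63.6 CPM in SPR against 97.1, 134.9 and 113.9 CPM in SPF (log2 fold change -0.77, SE 0.18, edgeR adjusted p = 0.0153). Without SPR replicate 2, SPR replicate 3 or SPF replicate 2 the adjusted p was 0.0642, 0.0566 and 0.0645. Its log2 fold change for DP over SPF was -0.45 (SE 0.18, edgeR adjusted p = 0.122), with DP libraries between those of SPR and SPF. On the similarity index of the study, where 1 is the SPR level and -1 the SPF level on log2(CPM + 1), DP stood at -0.02 for Abcg1 (-0.22 to 0.12 with any 1 library left out), at 1.11 for Acss2 (0.994 to 1.25) and at 0.839 for Elovl5 (0.450 to 1.42). Abca1, the exporter that loads apolipoprotein A-I, had 14, 21 and 20 counts in all over DP, SPR and SPF, too few to pass the filter. Nr1h2 averaged 143 ± 29.96 CPM in DP and 159 ± 13.6 CPM in SPR, against 164 ± 26.8 CPM in SPF (SD, n = 3 each). It was called in neither comparison.

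**Figure D3:**
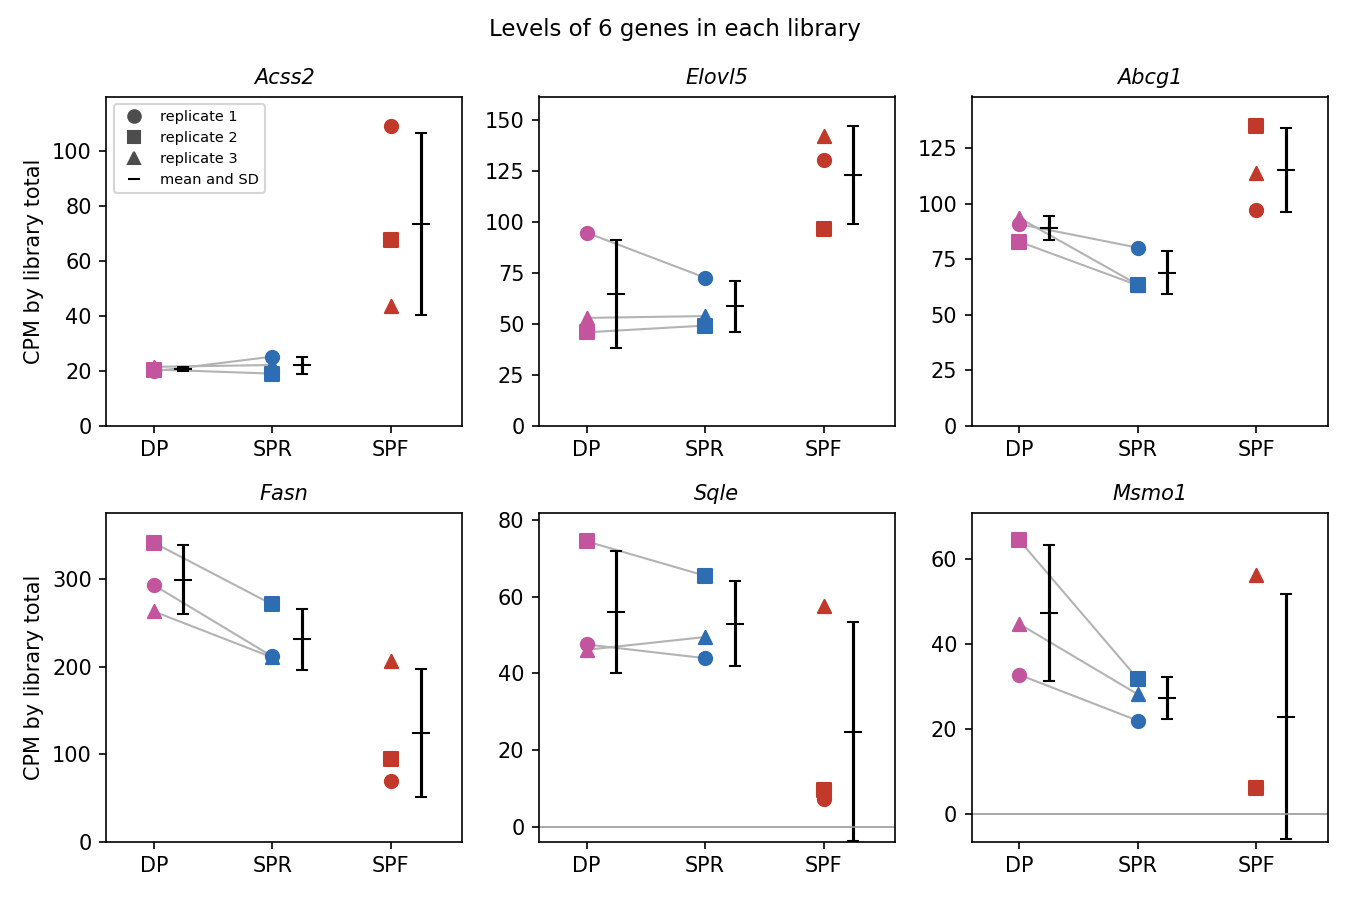
CPM (y axis, by library total) of 6 genes in each DP, SPR and SPF library, with marker shapes for replicate numbers, grey lines joining DP and SPR libraries of the same number and bars for the mean and SD (n = 3). Acss2 lies at 18.9 to 25.1 CPM in the 6 Th17-culture libraries, under the 43.7 to 108.9 CPM of SPF, whereas Sqle and Msmo1 show SPF replicate 3 at 57.6 and 56.2 CPM far above SPF replicates 1 and 2, which lie under 10 CPM.

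Fasn, at chr11:120805846-120824547, was the member that rose in DP relative to SPF. It stood at 262.9 to 341.2 CPM in DP and 210.4 to 270.7 CPM in SPR, against 69.9, 94.9 and 206.8 CPM in SPF, so every DP and SPR library was above every SPF library. The log2 fold change was 1.20 for DP over SPF (SE 0.33, edgeR adjusted p = 0.0372) and 0.88 for SPR over SPF (SE 0.33, edgeR adjusted p = 0.0928). The DP call was lost without any 1 DP library, without SPF replicate 1 or without SPF replicate 2 (adjusted p = 0.0649 to 0.130), and with only the DP and SPF libraries in the fit (0.0716). Acaca, the acetyl-CoA carboxylase whose malonyl-CoA is the substrate of Fasn, stood at 20.2, 20.02 and 13.4 CPM in DP and 16.7, 37.9 and 16.8 CPM in SPR, against 4.08, 6.51 and 14.4 CPM in SPF. Its log2 fold change for SPR over SPF was 1.47 (SE 0.46, edgeR adjusted p = 0.0505), just short of the threshold, and DESeq2 called it.

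Most other genes of both pathways shared a pattern within the SPF libraries. SPF replicate 3 was the highest of the 3 SPF libraries for 25 of the 30 members tested (83.3%), as it was for 37.4% of all tested genes, and it was more than 2-fold above both others for 18 of 30 (60%), against 6.71% of all genes. These 18 were 9 of the 13 cholesterol genes, 7 of the 9 fatty acid genes, Insig1 and Stard4. SPF replicate 1 was below all 6 libraries of the Th17 culture for 23 of 30 members (76.7%), against 31.8% of all genes, and SPF replicate 2 for 19 (63.3%), against 33.3%. SPF replicate 3 was below all 6 for 1 member, Fasn (3.33%, against 24.6%), and above all 6 for 12 (40%, against 20.9%).

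In the cholesterol chain the pattern was wide for 8 of the 13 genes tested, in which SPF replicate 3 was 4.66 to 8.85 times the higher of the other SPF libraries. Hmgcs1, with 89.6 to 141 CPM in DP and 80.3 to 89.1 CPM in SPR, stood at 36.3, 35.4 and 187 CPM in SPF. Fdps, the farnesyl diphosphate synthase at the branch point to prenylation, stood at 153.5, 252.1 and 169.9 CPM in DP and 186.7, 219.1 and 136.4 CPM in SPR, against 41.3, 59.1 and 313.2 CPM in SPF. Sqle, the squalene epoxidase, a control point of the pathway, stood at 47.5, 74.4 and 46.1 CPM in DP and 44.0, 65.4 and 49.5 CPM in SPR, against 7.26, 9.77 and 57.6 CPM in SPF. In SPF replicates 1 and 2 each of these 3 genes was below every DP and SPR library.

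Further down the chain, Cyp51, the lanosterol demethylase, stood at 25.7, 42.1 and 21.4 CPM in DP and 20.9, 34.0 and 20.2 CPM in SPR, against 4.54, 6.98 and 37.6 CPM in SPF. Msmo1 stood at 6.35, 6.05 and 56.2 CPM in SPF, and its SPF replicate 3 was 8.85 times the higher of the other SPF libraries, the widest ratio among the members tested. Lss, the lanosterol synthase, Nsdhl and Hsd17b7, which complete the removal of methyl groups, had ratios of 4.99, 4.66 and 4.79. In SPF replicates 1 and 2, Lss stood at 0.907 and 2.33 CPM and Hsd17b7 at 1.36 and 2.33 CPM. A floor of 3 counts is 1.36 and 1.40 CPM in these libraries, so the ratios of Lss and Hsd17b7 rest on few counts. The ratios were smaller for the other 5 genes, at 1.53 for Mvk and 1.45 for Pmvk, the mevalonate and phosphomevalonate kinases, at 2.12 for Mvd, and at 1.01 for Sc5d and 1.75 for Dhcr7, late enzymes that act on sterol rings. Cyp51 overlaps Akap9 on the opposite strand, and Hmgcs1 overlaps Gm48342 in the same way.

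**Figure D4:**
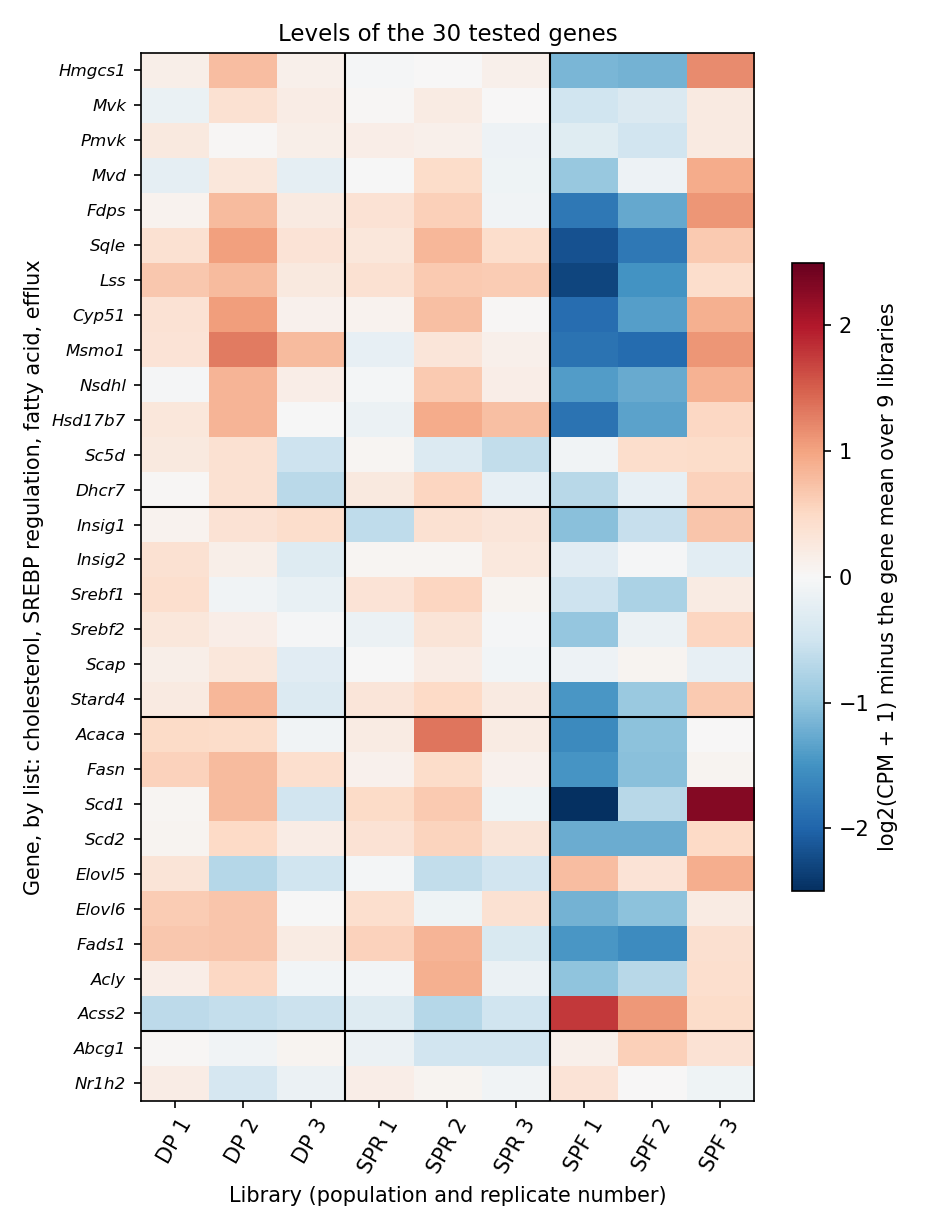
Levels of the 30 tested members (rows, grouped by list) in the 9 libraries (columns), as log2(CPM + 1) minus the mean of the gene, on a colour scale from -2.5 to 2.5. SPF replicates 1 and 2 are blue for most cholesterol and fatty acid genes and SPF replicate 3 is mostly red, while Acss2 and Elovl5 are red in all 3 SPF libraries.

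Among the fatty acid genes, Scd2 stood at 620, 833 and 679 CPM in DP and 764.5, 867 and 746 CPM in SPR, against 249.97, 249 and 841 CPM in SPF. Scd1, the desaturase best known from liver and fat, stood at 21.5, 36.8 and 14.7 CPM in DP and 29.3, 33.1 and 19.2 CPM in SPR, against 1.81, 12.6 and 105.5 CPM in SPF, a spread of the SPF libraries wider than any difference between groups. Fads1, a desaturase of polyunsaturated fatty acids, Elovl6, the elongase of palmitate, and Acly, which makes cytosolic acetyl-CoA from citrate, had SPF replicate 3 at 3.79, 2.41 and 2.19 times the higher of the other SPF libraries. Fads2, the partner desaturase of Fads1, did not pass the filter, with 19 counts in DP, 26 in SPR and 10 in SPF, all 10 in SPF replicate 3.

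Among the 6 regulators and carriers, SPF replicate 3 was more than 2-fold above the other SPF libraries for 2. Srebf2 stood at 282.3, 260.3 and 227.4 CPM in DP and 209, 290.5 and 226.6 CPM in SPR, against 118.4, 209.3 and 337.8 CPM in SPF. Srebf1 stood at 242.7, 169.6 and 159.2 CPM in DP and 230.6, 263.4 and 189.6 CPM in SPR, against 126.1, 104.7 and 209.6 CPM in SPF. SPF replicate 3 was 1.61 times the higher of the other SPF libraries for Srebf2 and 1.66 times for Srebf1. Scap averaged 105 ± 20.4 CPM in DP and 103 ± 9.61 CPM in SPR, against 94.6 ± 9.46 CPM in SPF (SD, n = 3 each). Insig2 averaged 37.1 ± 9.08 CPM in DP and 37.7 ± 3.52 CPM in SPR, against 29.99 ± 3.04 CPM in SPF. Insig1, itself a target of SREBP, and Stard4, a cytosolic sterol carrier, followed the enzymes, with SPF replicate 3 at 2.57 and 3.06 times the higher of the other SPF libraries. Srebf2 overlaps the microRNA gene Mir33 and Gm49502 on its strand, and Srebf1 overlaps Rai1 on the other.

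Without SPF replicate 3, 14 members were called higher in DP than in SPF and 1 lower, where 19.7% of all genes were called (11.5% higher and 8.12% lower). Between SPR and SPF, 16 were called higher and 3 lower, where 22.2% of all genes were called (12.5% higher and 9.71% lower, edgeR, 9248 genes tested). The median log2 fold change of the members was 1.25 for DP over SPF and 1.14 for SPR over SPF, against 0.01 and -0.01 for all genes. The same 8 of 13 cholesterol genes were called higher in both, namely Hmgcs1, Fdps, Sqle, Lss, Cyp51, Msmo1, Nsdhl and Hsd17b7. Of these, Sqle, Lss, Cyp51, Msmo1 and Hsd17b7 were under 10 CPM in SPF replicates 1 and 2, as was Acaca of the fatty acid list. In this fit they passed the filter only through DP or SPR libraries, where they were high. Lss and Hsd17b7 lay near the floor of 3 counts in those 2 SPF libraries. Sqle had a log2 fold change of 2.63 for DP over SPF (SE 0.32, edgeR adjusted p = 0.000748) and 2.58 for SPR over SPF (SE 0.32, edgeR adjusted p = 0.000569). Of the fatty acid genes, Acaca, Fasn, Scd2, Elovl6 and Fads1 were called higher in both, and Acly for SPR over SPF alone. Stard4 was called higher in both and Srebf1 for SPR over SPF (0.94, SE 0.23, edgeR adjusted p = 0.0152). Acss2 was called lower with and without that library. SPF replicate 3 was the highest SPF library for most members, so leaving it out raised these fold changes by construction. The calls are a description and not separate support. Without SPF replicate 1 or without SPF replicate 2, 0 members were called higher and 1 lower for DP over SPF (medians 0.15 and 0.18). For SPR over SPF 0 were higher, with 3 and 2 lower (medians 0.09 and 0.15).

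**Figure D5:**
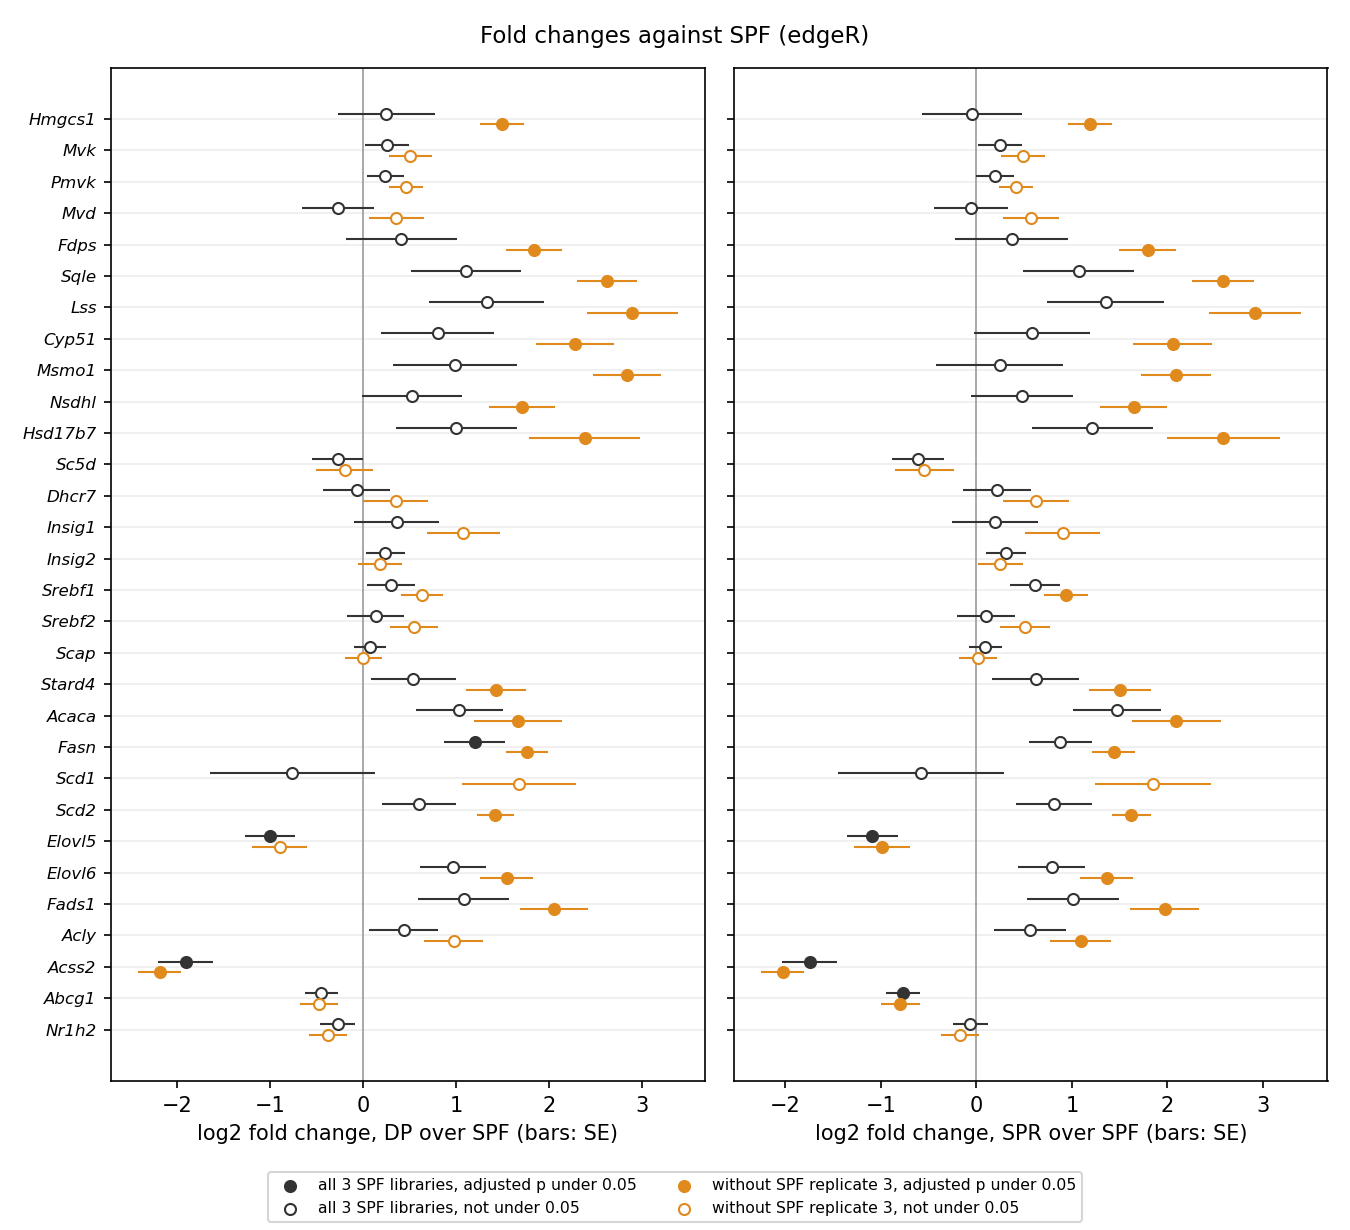
Log2 fold change (x axis, bars for the SE) of the 30 tested members for DP over SPF and for SPR over SPF, with dark points for all 3 SPF libraries and orange points without SPF replicate 3, filled where the edgeR adjusted p was under 0.05. Sqle moves to 2.63 for DP over SPF without that library, while Acss2 stays near -2 in both fits.

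Other properties of SPF replicate 3 are given as measured. Its total of counts and its TMM factor of 0.988 lay within the range of the other libraries. The B cell markers Cd79a, Cd79b and Ms4a1 summed to 3.79 to 5.31 CPM in DP and 2.79 to 6.92 CPM in SPR, against 19.1, 26.1 and 14.4 CPM in SPF, lowest in SPF replicate 3, with Ms4a1 at 0 in every SPF library. The myeloid markers, with Csf1r and Cd14 at 0 in every library, summed to at most 2.09 CPM in DP and SPR, against 11.3, 5.12 and 4.18 CPM in SPF. Itgam alone of them passed the filter of more than 10 CPM, so 1 gene made up most of the 11.3 CPM in SPF replicate 1. Itgam and Cd79b were called lower in DP and in SPR than in SPF (edgeR), where 6.18% and 7.58% of all genes were. The erythroid markers Hbb-bs and Hba-a1, of which Hba-a1 gave all 52 counts in SPF, summed to at most 0.669 CPM in DP and SPR, against 0, 8.84 and 15.3 CPM in SPF, highest in SPF replicate 3. CD8 and NK markers, with Klrb1c at 0, summed to 16.3 to 32.2 CPM over all libraries. The part of these in the levels of the members was not tested.

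Among the 6 libraries of the Th17 culture, replicate 2 stood highest. DP replicate 2 was the highest of the DP libraries for 20 of 30 members and for 12 of the 13 cholesterol genes, where it was the highest for 37.6% of all tested genes. SPR replicate 2 was the highest of the SPR libraries for 21 of 30 members and 10 of 13 cholesterol genes, where it was the highest for 40.1% of all genes. No member was more than 2-fold above both other libraries in DP replicate 2, and Acaca alone was in SPR replicate 2. Transcripts of the mitochondrial genome made up 0.287% and 0.521% of the counts in DP replicates 2 and 3 and at most 0.0576% in the other libraries, and the part of this in the levels was not tested. Without these transcripts the same members were called in all 3 comparisons, and Acaca was also called for SPR over SPF.

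Genes of neighbouring pathways that were not among the 35 were counted in the same fits. Of 8 other genes of sterol synthesis and uptake tested, none was called for DP over SPF and 1 was called higher for SPR over SPF (edgeR). For DP over SPF, 1 was higher at an unadjusted p under 0.05 (15.9% of all genes) and DESeq2 called 1 (17.4% of all genes). Of all genes, edgeR called 7.55% higher for DP over SPF and 9.14% for SPR over SPF. A single call in so short a list does not mark it out from all genes. Without SPF replicate 3, Acat2 and Scarb1 were called higher in each, where 11.5% (DP over SPF) and 12.5% (SPR over SPF) of all genes were. SPF replicate 3 was more than 2-fold above both other SPF libraries for these 2 genes. Leaving it out thus raised their fold changes by construction, and the calls are a description. Scarb1, a receptor that takes up cholesterol from HDL, stood at 45.01, 88.3 and 45.5 CPM in DP and 54.1, 93.0 and 58.8 CPM in SPR, against 10.4, 17.2 and 41.8 CPM in SPF. Every DP and SPR library was above every SPF library. The log2 fold change was 1.30 for DP over SPF (SE 0.45, edgeR adjusted p = 0.0812) and 1.54 for SPR over SPF (SE 0.45, edgeR adjusted p = 0.0386), and the second call was lost without any 1 SPR library, SPF replicate 1 or SPF replicate 2 (adjusted p = 0.0545 to 0.135). Acat2, the cytosolic thiolase that makes acetoacetyl-CoA for the mevalonate pathway, had SPF replicate 3 at 30.7 CPM, against 8.17 and 7.44 CPM in SPF replicates 1 and 2. Of 6 genes of SREBP processing and degradation tested, Fbxw7 was called higher for DP over SPF (0.93, SE 0.26, edgeR adjusted p = 0.0372). With the block it was also called for DP over SPR (0.83), where 1.97% of all genes were called higher. Sec24d was called higher for SPR over SPF (1.31, SE 0.39, edgeR adjusted p = 0.0409). Both calls against SPF were lost without some single libraries (0.0546 to 0.133 and 0.0718 to 0.131).

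Of 15 other genes of fatty acid synthesis tested, 1 was called higher and 1 lower for DP over SPF, and 1 higher for SPR over SPF (edgeR, where 13.7% and 16.7% of all genes were called). At an unadjusted p under 0.05 there were 5 higher and 1 lower for DP over SPF and 6 higher and 1 lower for SPR over SPF, and DESeq2 called 5 and 3. SPF replicate 3 was the highest SPF library for 11 of the 15 (73.3%, against 37.4% of all genes). Leaving it out raised the fold changes of those 11 by construction, and the calls without it are a description. Without SPF replicate 3, 7 of the 15 were called higher and 1 lower for DP over SPF, where 11.5% and 8.12% of all genes were. For SPR over SPF 6 were called higher, where 12.5% of all genes were. Acsl3 and Acsl4, which join fatty acids to coenzyme A, Hsd17b12, a reductase of the elongation cycle, Pgd, which makes NADPH in the pentose phosphate pathway, and Slc25a1, the mitochondrial citrate carrier, were higher in both of these. Hacd3, a dehydratase of the elongation cycle, was higher in DP with all libraries (0.94, SE 0.21, edgeR adjusted p = 0.0171, and 0.0693 without DP replicate 2). Tecr, the reductase that closes the cycle, was lower in DP (-0.78, SE 0.17, edgeR adjusted p = 0.0142, against 0.0562 without DP replicate 2 and 0.0589 without SPF replicate 2). The gene called for SPR over SPF was Pgd (edgeR adjusted p = 0.0123, and 0.0579 without SPF replicate 2).

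Of 7 other LXR genes and sterol exporters tested, 1 was called higher in each comparison with SPF. Of all genes, 7.55% were called higher for DP over SPF and 9.14% for SPR over SPF. The 1 gene was Lpcat3, a phospholipid acyltransferase induced by LXR (edgeR adjusted p = 0.0468 for DP over SPF and 0.0327 for SPR over SPF). Without SPF replicate 3 both calls were lost (edgeR adjusted p = 0.0795 and 0.0651), as they were without SPF replicate 1 or 2 (0.0591 to 0.132), and the calls were also lost without DP replicate 2 or 3 (0.148 and 0.0919) and without any 1 SPR library (0.0756 to 0.107). Of 17 genes of fatty acid oxidation tested none was called in any of the 3 comparisons (edgeR), and DESeq2 called none. At an unadjusted p under 0.05 there were 1 higher and 2 lower for DP over SPF, 2 higher and 2 lower for SPR over SPF and 0 for DP over SPR, shares below those of all genes given above. Without SPF replicate 3, Slc25a20, the carnitine and acylcarnitine carrier of the mitochondrion, was called lower in DP (edgeR adjusted p = 0.0450) and in SPR (0.0236) than in SPF, and without SPF replicate 1 another 1 of the 17 was called lower in each. The summed level of the fatty acid oxidation genes was 1106 to 1139 CPM in DP and 1069 to 1169 CPM in SPR, against 1039 to 1139 CPM in SPF, without the rise in SPF replicate 3 (1101 CPM).

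Of the 5 members that did not pass the filter, Idi1, the isopentenyl diphosphate isomerase, had 10, 6 and 2 counts over DP, SPR and SPF, and Fdft1, the squalene synthase, had 2, 5 and 2. Me1, the cytosolic malic enzyme that supplies NADPH, had 0 counts in DP, 1 in SPR and 2 in SPF. A floor of 3 counts corresponds to 0.475 CPM over DP, 0.335 CPM over SPR and 0.461 CPM over SPF, and a difference in Fdft1 or Me1 was not detectable at this depth.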

How the data were processed

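RNA of 9 sorted T cell libraries, 3 each of DP, SPR and SPF, was counted per gene. The deposited values are raw counts, which the authors made from 3′ MARS-seq libraries using cutadapt, STAR, SAMtools and HTSeq on mm10, per the labels. No source used here gives tool versions, the annotation, the strand setting or the use of molecular identifiers. In the deposited count table, 1 unnamed line of column totals and 1 column of no library were left out. The 35 genes and the other lists were chosen with earlier results of these data known, and all 35 could be named. Some genes of the other lists are not reported here and were left out of their counts and sums.

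CPM was computed by library total. Testing used the 9310 genes that exceeded 10 CPM in any library. A quasi-likelihood model over 9 libraries was fitted in edgeR 4.0.16 (R 4.3.3), with TMM factors of 0.950 to 1.053 and 6 residual degrees of freedom. P-values were adjusted over all tested genes by Benjamini-Hochberg, with calls under 0.05. The scripts were tested on simulated data. Intervals are 2 SE either side. No library was a copy of another. Gene positions are from GENCODE M21 and promoters from RefSeq. Alternatives were RLE factors, library totals, no filter, DESeq2 1.42.0, a fit of the compared groups alone, a block for the replicate number, no mitochondrial-encoded genes, each library left out and DP replicates 2 and 3 left out together. The block fit with each pair left out was added after the data were examined.

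Deviations from the group means on log2(CPM + 1) correlated at 0.222, 0.401 and 0.407 for same-numbered DP and SPR libraries, all above 0.1, so these were taken as pairs. Same-numbered libraries correlated at 0.124, -0.0152 and -0.151 for DP and SPF and at 0.0913, 0.0954 and -0.120 for SPR and SPF, which share only a number. Libraries of different numbers correlated at -0.284 to 0.290 for DP and SPF and at -0.274 to 0.232 for SPR and SPF. SPF replicate 3 correlated at 0.290 with DP replicate 2 and at 0.197 with SPR replicate 2, and the cause was not tested.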

Additional observations from a re-analysis of the deposited data

How the results depend on the processing

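The number of members called changed most without SPF replicate 3 and with no filter. With no filter the fit replaced the spread of each gene by a shared trend (infinite prior degrees of freedom, against 4.93 in the main fit). Its calls therefore leave aside the wide spread of single genes, as do those of the block fit with pair 2 left out. For DP over SPF, 3 members were called, with a range of 1 to 15 across the fits that leave out 1 library, 10 with no filter, 1 with only the groups compared, 1 with a replicate block on those 6 libraries and 0 without both DP replicates 2 and 3. For SPR over SPF, 3 were called, with a range of 1 to 19 across the fits that leave out 1 library, 13 with no filter and 5 with DESeq2. For DP over SPR, 0 members were called in all fits run except 1 with the replicate block on 6 libraries. Of all genes, 1278 were called for DP over SPF (551 to 1818 with each library left out, 2137 with no filter, 423 with the replicate block on 6 libraries and 116 without both DP replicates) and 1557 for SPR over SPF (827 to 2054, 2479 and 1025 in the first 3 of these settings). Library totals gave 824 genes higher and 443 lower for DP over SPF, against 703 and 575 with TMM factors. For DP over SPR, 1 gene was called, against 4 with library totals, 211 with no filter, 44 with DESeq2, 6 with only the groups compared and 1 to 6 with each library left out. With the replicate block it was 7 in all 9 libraries and 313 in the 6 paired libraries, and 117, 430 and 75 with pairs 1, 2 and 3 left out. The same-numbered libraries of SPF were not paired with the others, so calls lost there under the block were not read as weaker effects.

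The direction of Hmgcs1 for SPR over SPF turned, from a log2 fold change of -0.05, to 0.21 with the replicate block in all libraries. With the block in the 6 SPR and SPF libraries alone the log2 fold change was 0.38, and it ran from -0.42 to 1.19 with 1 library left out. For DP over SPF it was -0.028 without both DP replicates 2 and 3 and ran from -0.12 to 1.49 with each library left out. Fdps ran from -0.027 to 1.84 for DP over SPF and from -0.069 to 1.79 for SPR over SPF, and Msmo1 from -0.21 to 2.09 for SPR over SPF, each low without SPF replicate 1 and high without SPF replicate 3. The cause was not tested. Counts limit Idi1, Fdft1, Fads2, Me1 and Abca1, which the filter left out of the main fit. With no filter all 35 members were tested, and none of these genes was called in any comparison.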
